A study of Homo sapiens with 6 samples.

Results

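The genes described here encode the energy sensor AMPK, the growth kinase mTOR and the proteins that connect them to nutrients at the lysosome. They were chosen by official gene symbol, as 41 genes of 19240 in the deposited count table, and all 41 were found there and had enough counts to be tested. Cells of the A549 line, a human lung carcinoma line, were compared after 48 h without glucose and after 48 h in 25 mM glucose, with 3 libraries per group and no other agent or allele that differed. Both groups share the A549 background, which is known to carry an inactivating mutation of STK11 and so to lack a working LKB1 kinase. Reads were counted at transcript 3' ends, and no source states whether replicate libraries were grown as independent cultures. The p-values below therefore reflect how much these 6 libraries vary, part of which may be technical.

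AMPK is a trimer of a catalytic alpha, a scaffolding beta and a nucleotide-binding gamma subunit, and it is switched on when ATP runs low, mainly through phosphorylation by LKB1. Once active, it restrains mTORC1, the complex of mTOR with raptor that drives protein synthesis, through the TSC complex and through raptor itself. Amino acids and glucose reach mTORC1 through the Rag GTPases, which sit on the lysosome on a platform called Ragulator and are switched by GATOR1 and folliculin. These proteins are regulated largely by phosphorylation and nucleotide binding, which transcript counts do not measure.

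Gene counts per library were 11086416 to 14060313 without glucose and 6701004 to 14259943 with glucose, and the shallowest library was replicate 1 with glucose. The 41 genes together took 0.162% to 0.183% of the gene counts without glucose and 0.136% to 0.172% with glucose. Epithelial keratin transcripts were abundant, as KRT8 and KRT18 had 100315 and 70219 counts over the 6 libraries. The summed level of the 5 epithelial markers was 1510 to 1818 CPM without glucose and 3116 to 3892 CPM with glucose, where CPM is the count scaled to a common library size. This sum was mostly KRT8 and KRT18, which fell (log2 −1.18 and −0.90, edgeR adjusted p = 0.00150 and 0.00473). KRT19, CDH1 and EPCAM did not pass (log2 −0.49, 0.42 and −0.43), and all libraries without glucose were above those with glucose for CDH1. Of the alveolar type II markers, SFTPC had 0 counts, NKX2-1 had 3 and SFTPB had 42. The leukocyte markers CD3E, PTPRC and CD14 had 0, 6 and 39 counts, and their sum was at most 0.147 CPM without glucose and 1.06 to 1.69 CPM with glucose. CD14 fell, with 3 counts without glucose and 36 with glucose (edgeR adjusted p = 0.0116). The endothelial markers VWF, PECAM1 and CDH5 had 0, 12 and 15 counts, and the fibroblast markers DCN, LUM and COL1A1 had 0, 55 and 586. COL1A1, a collagen chain, fell (log2 −1.37, edgeR adjusted p = 0.00263). The sum of the endothelial list was 0.190 to 0.306 CPM without glucose and 0.211 to 0.847 CPM with glucose, while that of the fibroblast list was 4.51 to 5.89 CPM without glucose and 13.0 to 14.7 CPM with glucose. The part of these marker differences in the results below was not tested, and in bulk RNA fewer cells of a kind and less RNA per cell cannot be told apart.

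Transcripts of the beta and gamma subunits PRKAB2 and PRKAG2, of all but RRAGA among the Rag GTPases, of RICTOR, TSC1 and LAMTOR3 were higher without glucose, and NPRL3 was lower. In total 8 of the 41 genes rose and 1 fell (edgeR quasi-likelihood test, Benjamini-Hochberg adjusted p under 0.05). The same threshold was passed upward by 11.6% and downward by 10.7% of the 11886 genes tested, together 22.3%, and the 22.0% of the 41 that passed lies near that share. For 11 of the 41 genes the lowest library without glucose exceeded the highest with glucose, and for 5 the reverse held, or 39.0% in all, against 40.4% of all genes tested. An unadjusted p under 0.05 was reached by 15 of the 41 genes, against 36.5% of all genes tested. The median log2 fold change was 0.11 over the 41 genes and 0.02 over all genes tested. That of the 41 genes was 0.051 without replicate 1, 0.067 without replicate 2 and 0.17 without replicate 3 of the glucose-free cells. It was 0.085, 0.16 and 0.17 without replicate 1, 2 and 3 with glucose, in that order. With 1 library left out, the median over all genes tested was 0.011 to 0.045. The median of the 41 genes was 0.050 with library totals as scaling, where that of all genes was −0.04. The number that rose was 4 without replicate 3 of the glucose-free cells, and also 4 without replicate 2 or without replicate 3 with glucose. Over all genes, 870, 860 and 894 rose under these omissions, in the same order, against 1376 with all libraries. The fall of NPRL3 was the only downward call, and it was lost when any library but replicate 3 with glucose was left out.

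**Figure D1:**
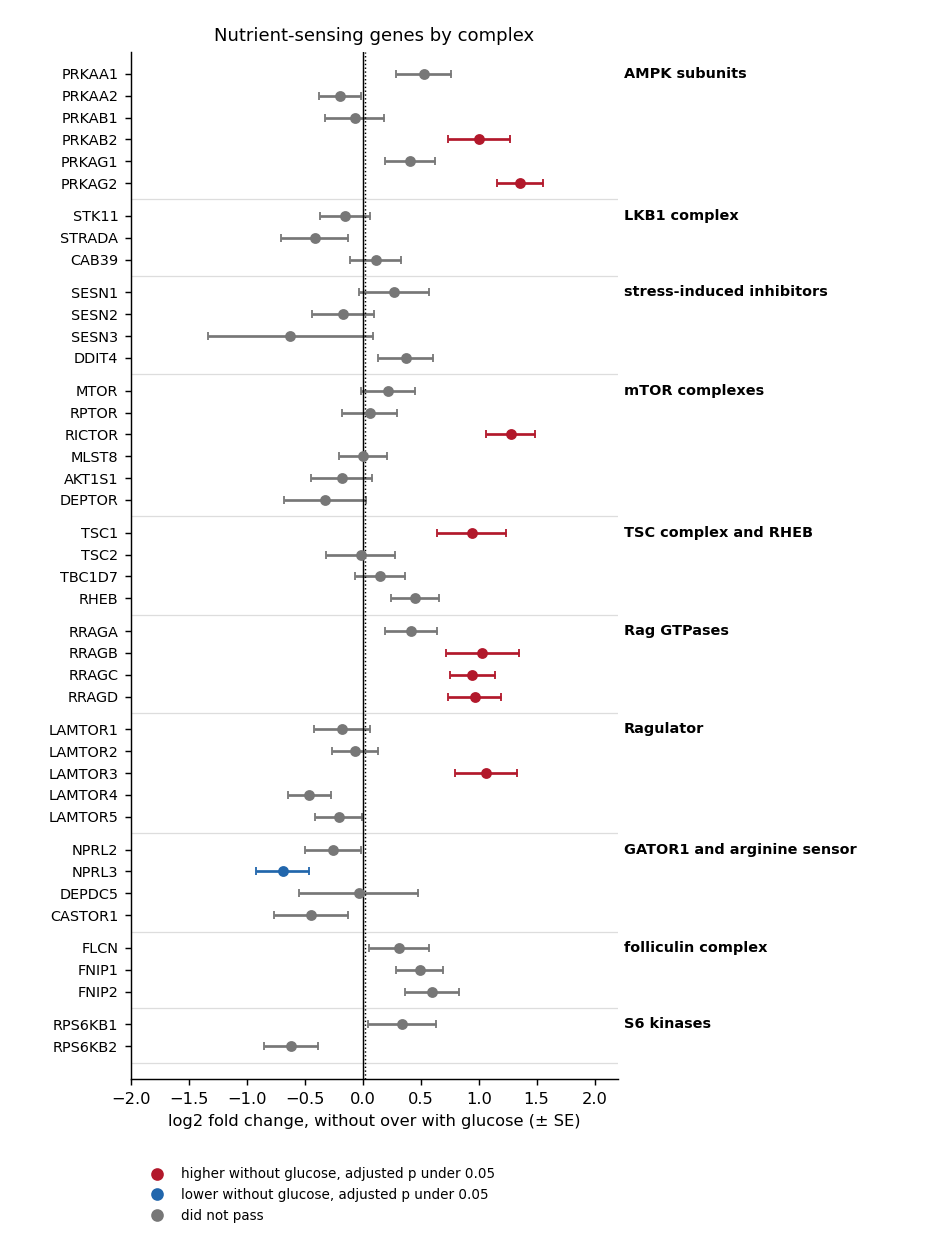
Log2 fold changes, without over with glucose, of the 41 genes grouped by complex. Points are estimates of the edgeR fit and bars are ± SE (3 libraries per group), the solid line marks 0 and the dotted line the median of 0.02 over all tested genes. The 8 red points lie between 0.94 and 1.35, and the blue point is NPRL3 at −0.69.

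Among the AMPK subunits, a beta and a gamma transcript rose and the other 4 did not pass. That is 33.3% called, against 22.3% of all genes tested, and so small a group was not tested as a set. PRKAG2, a gamma subunit that binds AMP and ATP, had 70.5, 84.1 and 78.3 CPM in the libraries without glucose, against 27.7, 33.4 and 29.9 CPM with glucose. Every library without glucose was well above every library with glucose. Its fold change was 2.56 (log2 1.35 ± 0.20 SE, edgeR adjusted p = 6.21e-04), and it passed under each of the 12 alternatives (adjusted p from 1.37e-08 to 0.00531). The annotation lists antisense genes named for PRKAG2, as for PRKAB1, MTOR, DDIT4 and LAMTOR5, and the strand setting of the counting is not given in the sources used here, so reads of such partners cannot be told apart. PRKAB2, a beta subunit that holds the trimer together and binds glycogen, had 18.1, 23.9 and 32.9 CPM without glucose and 16.0, 11.6 and 10.1 CPM with glucose. The groups did not overlap, but replicate 1 without glucose and replicate 1 with glucose were close. The log2 fold change was 1.003 ± 0.27 (edgeR adjusted p = 0.0189), and the call was lost without replicate 3 of the glucose-free cells (0.0959), or replicate 2 (0.0707) or 3 (0.0819) with glucose.

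The paralogs of these subunits gave smaller differences. PRKAB1, the other beta subunit, had 12.2, 18.4 and 14.3 CPM without glucose, against 19.2, 16.3 and 12.0 CPM with glucose. Its log2 fold change was −0.07 ± 0.25 (edgeR adjusted p = 0.862). PRKAG1, the other gamma subunit, had 45.4, 60.7 and 45.4 CPM without glucose and 45.8, 36.7 and 32.4 CPM with glucose, so its groups overlapped (log2 0.40 ± 0.22, edgeR adjusted p = 0.198). The difference between paralogs was not tested. PRKAA1, a catalytic subunit, had 29.5, 29.9 and 42.3 CPM without glucose, against 21.7, 30.0 and 19.0 CPM with glucose. Only replicate 3 without glucose was clear of all libraries with glucose (log2 0.53 ± 0.24, edgeR adjusted p = 0.129). PRKAA2, the alternative catalytic subunit, had 32.4, 35.6 and 33.6 CPM without glucose and 37.3, 38.5 and 40.7 CPM with glucose. These groups did not overlap, but the difference was small (log2 −0.20 ± 0.18, edgeR adjusted p = 0.467).

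Of the 3 transcripts of the LKB1 complex, which phosphorylates AMPK in cells that have it, 0 passed the edgeR test, with 0 at an unadjusted p under 0.05 and 0 by DESeq2. Over all genes tested, 22.3% passed the edgeR test and 36.5% reached that unadjusted p. STK11, the LKB1 kinase gene itself, had 29.8, 20.2 and 21.5 CPM without glucose and 27.7, 29.0 and 22.8 CPM with glucose. The transcript was thus present in every library with overlapping groups (log2 −0.15 ± 0.22, edgeR adjusted p = 0.649), and 3' counts say nothing of the mutation or of protein. STRADA, the pseudokinase that activates LKB1, had a log2 fold change of −0.42 ± 0.29. CAB39, the scaffold of the complex, had 0.11 ± 0.22.

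The sestrins and DDIT4 are inhibitors of mTORC1 that are known to be induced by stress. Of these 4 genes 0 passed the edgeR test, with 0 at an unadjusted p under 0.05 and 0 by DESeq2. The shares over all genes tested were 22.3% by the edgeR test and 36.5% at that unadjusted p. SESN2, a leucine sensor that is a known target of the stress factor ATF4, had 14.8, 21.3 and 32.3 CPM without glucose, against 26.6, 28.4 and 22.3 CPM with glucose. Replicates 1 and 2 without glucose were below every library with glucose and replicate 3 was above them. The log2 fold change was −0.17 ± 0.27 (edgeR adjusted p = 0.683). DDIT4, which encodes the mTORC1 inhibitor REDD1 and acts through the TSC complex, had 75.9, 83.1 and 88.5 CPM without glucose and 87.3, 47.4 and 57.3 CPM with glucose. Replicate 1 with glucose stood among the libraries without glucose, and the other libraries with glucose were lower. DDIT4 did not pass with all libraries (log2 0.37 ± 0.24, edgeR adjusted p = 0.289) but passed without replicate 1 with glucose (log2 0.65, edgeR adjusted p = 0.0455).

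SESN1, a p53 target of the same family, had 8.15, 10.2 and 6.26 CPM without glucose, against 6.21, 9.02 and 5.13 CPM with glucose, and its groups overlapped. SESN3, a FOXO target, was near the lower end of what was tested, with 41 counts over the libraries without glucose and 61 with glucose. Its log2 fold change was −0.63 ± 0.71, an error too wide to read a direction from.

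**Figure D2:**
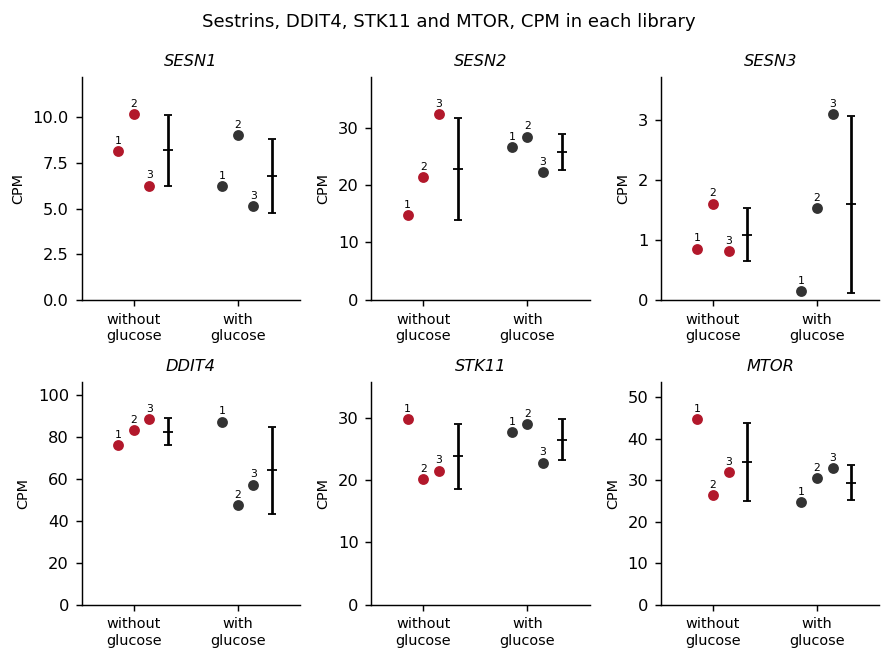
CPM in each library (numbered by replicate) for SESN1, SESN2, SESN3, DDIT4, STK11 and MTOR, without glucose on the left and with glucose on the right of each panel. Bars beside the points are mean ± SD (n = 3 per group), each axis starts at 0, and the groups overlap in every panel, with replicate 1 with glucose high for DDIT4 at 87.3 CPM.

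Of the mTOR complexes, the mTORC2 subunit RICTOR rose and the other members did not pass, or 16.7% called against 22.3% of all genes tested. RICTOR, which defines mTORC2, the complex that phosphorylates AKT, had 93.9, 71.8 and 104 CPM without glucose, against 39.1, 34.5 and 38.1 CPM with glucose. The lowest library without glucose was well over the highest with glucose. Its fold change was 2.42 (log2 1.27 ± 0.21, edgeR adjusted p = 0.00130), and it passed under all 12 alternatives (adjusted p up to 0.0115). RPTOR, which encodes the raptor subunit of mTORC1, had 15.5, 13.2 and 10.9 CPM without glucose and 11.7, 14.8 and 11.5 CPM with glucose. The values intermixed (log2 0.06 ± 0.24, edgeR adjusted p = 0.882). MTOR, the kinase of both complexes, had 44.7, 26.5 and 31.9 CPM without glucose, against 24.7, 30.5 and 33.0 CPM with glucose, which also overlapped (log2 0.22 ± 0.23). The log2 fold change of MLST8, a subunit of both complexes, was 0.00 ± 0.21. Those of the mTORC1 inhibitor AKT1S1 and of DEPTOR, an inhibitor of mTOR in both complexes, were −0.18 ± 0.26 and −0.32 ± 0.36.

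In the TSC complex, which holds the GTPase RHEB inactive and so restrains mTORC1, TSC1 rose. TSC1, the stabilizing subunit, had 80.6, 47.6 and 51.5 CPM without glucose, against 17.8, 38.2 and 37.1 CPM with glucose. Both replicates 1 were the extremes of their groups, high without glucose and low with it. The log2 fold change was 0.94 ± 0.30 (edgeR adjusted p = 0.0405). The call was lost on leaving out replicate 1 (log2 0.66, adjusted p = 0.154) or 3 (0.0713) without glucose, or replicate 1 (log2 0.66, adjusted p = 0.0875), 2 (0.0581) or 3 (0.0601) with glucose. TSC2, the subunit that acts on RHEB, had 35.1, 16.7 and 19.6 CPM without glucose and 21.3, 18.8 and 31.7 CPM with glucose, with full overlap (log2 −0.02 ± 0.30). TBC1D7, the third subunit, had a log2 fold change of 0.15 ± 0.22. RHEB, the direct activator of mTORC1, had 145, 183 and 167 CPM without glucose and 144, 108 and 111 CPM with glucose. Its groups met at replicate 1 of each, and it did not pass (log2 0.45 ± 0.20, edgeR adjusted p = 0.133).

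The Rag GTPases work as pairs of RagA or RagB with RagC or RagD and recruit mTORC1 to the lysosome. They had the highest median log2 fold change of the complexes, 0.96. Of the 4 genes 3 rose, against 11.6% of all genes tested, but so small a group was not tested as a set. The ranking was read from the values. RRAGC had 103, 106 and 117 CPM without glucose, against 65.7, 52.5 and 51.3 CPM with glucose. The groups were far apart relative to their spread (log2 0.95 ± 0.20, edgeR adjusted p = 0.00528), and RRAGC passed under all 12 alternatives (adjusted p up to 0.0328). RRAGD had 31.6, 36.3 and 27.8 CPM without glucose and 14.8, 13.1 and 20.8 CPM with glucose. These did not overlap (log2 0.97 ± 0.23, edgeR adjusted p = 0.0106), and the call was lost only without replicate 2 with glucose (0.0544). RRAGB, the paralog of RRAGA, had 9.86, 5.58 and 8.76 CPM without glucose, against 3.39, 3.65 and 4.64 CPM with glucose. It rose with a log2 fold change of 1.03 ± 0.31 (edgeR adjusted p = 0.0330). That call was lost without replicate 1 (0.112) or 3 (0.106) of the glucose-free cells, and without replicate 1 (0.0675), 2 (0.0943) or 3 (0.0531) with glucose. RRAGA had 70.7, 97.3 and 110 CPM without glucose and 75.0, 57.2 and 76.9 CPM with glucose. Replicate 1 without glucose lay within the range of the libraries with glucose (log2 0.41 ± 0.22, edgeR adjusted p = 0.207).

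**Figure D3:**
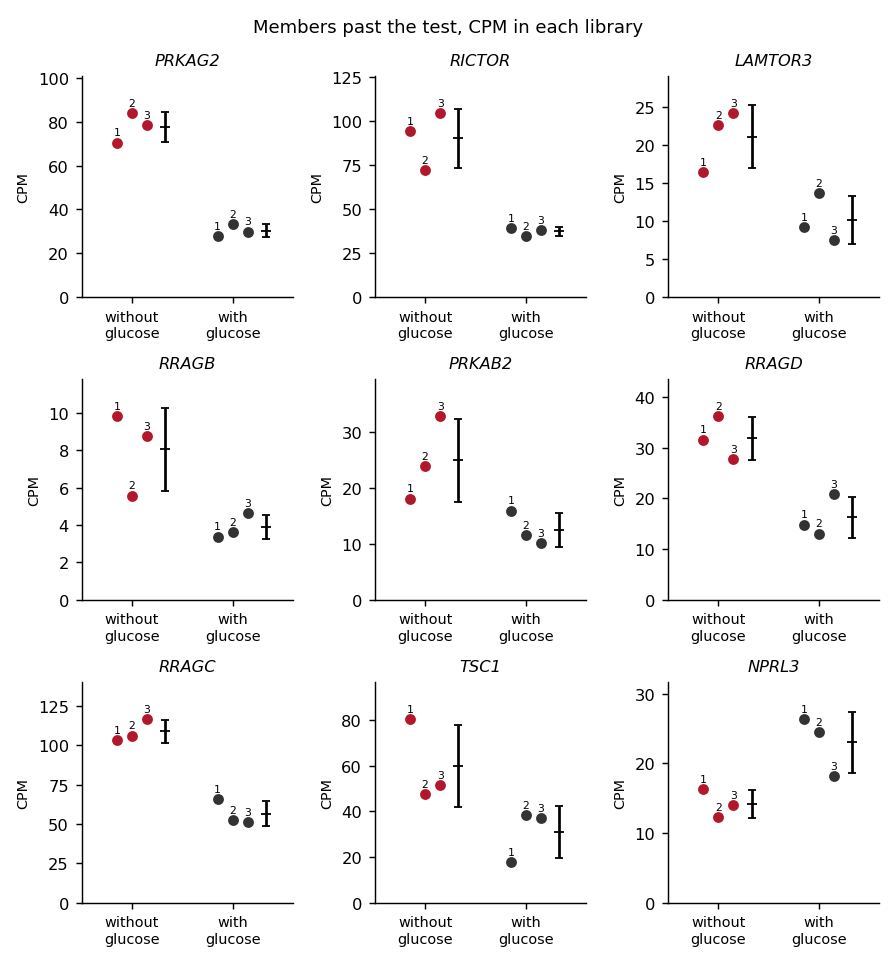
CPM in each library (numbered by replicate) for the 9 genes that passed, ordered by log2 fold change, without glucose on the left and with glucose on the right of each panel. Bars beside the points are mean ± SD (n = 3 per group) and each axis starts at 0. PRKAG2, RICTOR and RRAGC show wide gaps between the groups, while PRKAB2, LAMTOR3, RRAGB, TSC1 and NPRL3 show libraries of the groups close together.

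Promoter windows are shown because RRAGB, RRAGC and RRAGD each passed upward. RRAGC and RRAGD are also known targets of TFEB and TFE3, factors that bind elements built around CACGTG. Whether these factors took part in the rises was not tested. The windows run from 250 bases before to 50 bases after the annotated gene start, are from RefSeq on build GRCh38.p14 while the counts were made on hg19, and were matched by symbol for 35 of the 41 genes. Not matched were STRADA, MLST8, AKT1S1, DEPTOR, RRAGA and RRAGD. RRAGC and RRAGB rose, FNIP1 and LAMTOR4 did not pass, and these windows all hold the letters TCACGTG on one of their strands. Capitals mark matches to CACGTG, which reads the same on both strands, with the base that completes TCACGTG on either strand.
RRAGC, chr1:38859723-38860022, minus strand: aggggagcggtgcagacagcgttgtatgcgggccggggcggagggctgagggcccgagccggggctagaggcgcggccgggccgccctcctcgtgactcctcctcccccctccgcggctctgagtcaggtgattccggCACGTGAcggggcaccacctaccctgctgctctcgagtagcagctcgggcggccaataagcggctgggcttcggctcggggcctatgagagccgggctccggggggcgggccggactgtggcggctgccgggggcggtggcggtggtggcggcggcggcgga
RRAGB, chrX:55717499-55717798, plus strand: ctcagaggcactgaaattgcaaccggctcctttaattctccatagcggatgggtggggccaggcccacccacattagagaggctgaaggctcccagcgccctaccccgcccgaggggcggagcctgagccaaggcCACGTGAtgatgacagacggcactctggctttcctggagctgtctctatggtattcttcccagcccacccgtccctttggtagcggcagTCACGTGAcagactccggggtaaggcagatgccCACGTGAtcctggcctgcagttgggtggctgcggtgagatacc
FNIP1, chr5:131796968-131797267, minus strand: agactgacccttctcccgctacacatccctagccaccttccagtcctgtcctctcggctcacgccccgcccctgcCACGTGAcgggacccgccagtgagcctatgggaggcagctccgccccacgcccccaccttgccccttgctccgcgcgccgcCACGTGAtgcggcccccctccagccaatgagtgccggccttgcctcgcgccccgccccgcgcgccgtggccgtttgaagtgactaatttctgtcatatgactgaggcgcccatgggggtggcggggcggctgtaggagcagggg
LAMTOR4, chr7:100148668-100148967, plus strand: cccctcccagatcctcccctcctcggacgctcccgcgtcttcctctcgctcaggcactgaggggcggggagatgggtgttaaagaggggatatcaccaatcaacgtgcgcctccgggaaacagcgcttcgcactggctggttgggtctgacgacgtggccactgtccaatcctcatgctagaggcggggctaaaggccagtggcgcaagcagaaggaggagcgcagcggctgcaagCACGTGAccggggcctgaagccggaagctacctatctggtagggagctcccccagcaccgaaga

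Counted from the gene start, the matches to CACGTG began at position −112 in RRAGC, at −115, −25 and 8 in RRAGB, at −175 and −94 in FNIP1 and at −14 in LAMTOR4. TCACGTG was found in 6 of the 35 windows (17.1%), against 3.82% of 27303 windows of this length and 6.02% of the 9804 that belong to tested genes. The other windows with it were those of LAMTOR1 and TSC2. Of these 6 genes RRAGB and RRAGC rose. FNIP1, LAMTOR1, LAMTOR4 and TSC2 did not pass, with log2 fold changes of 0.49, −0.18, −0.46 and −0.02. The windows of PRKAB2, PRKAG2, RICTOR, TSC1 and LAMTOR3, which also rose, held no TCACGTG, and RRAGD had no matched window. Among the further pathway genes described below, the window of IRS1, which fell (log2 −0.97), held TCACGTG, with CACGTG from position 36. Those of SLC38A9, GRB10 and ATG13, which rose, and of AKT1, which fell, held none. No window was read for EIF4EBP1, which rose, or for CASTOR2, which fell. CACGTG without the flanking base was also found in NPRL3, which fell. The composite TGATGNAA, to which ATF4 and C/EBP factors bind as pairs, was found on either strand in 1 of the 35 windows, that of TSC2, where it overlaps TCACGTG, against 3.67% of all windows and 1.59% of those of tested genes. TGACGTCA, the cyclic AMP response element, was found in 0 of the 35, against 1.98% of all windows and 3.34% of those of tested genes. Windows of this size leave out distal and intronic elements.

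Of the 5 subunits of Ragulator, the lysosomal anchor of the Rag GTPases, 1 rose and 4 did not pass. That is 20% called, against 22.3% of all genes tested. LAMTOR3 rose, with 16.4, 22.6 and 24.2 CPM without glucose, against 9.18, 13.6 and 7.52 CPM with glucose. Replicate 1 without glucose and replicate 2 with glucose were the nearest values (log2 1.06 ± 0.27, edgeR adjusted p = 0.0143). The call was lost without replicate 3 of the glucose-free cells (0.0672) or replicate 3 with glucose (0.0657). The annotation lists pseudogenes of LAMTOR3, and likewise of RHEB, RRAGA, LAMTOR5 and CAB39, so reads that align to more than 1 of these copies were not counted and their values are uncertain. LAMTOR4 had 56.1, 58.7 and 59.1 CPM without glucose and 86.0, 73.7 and 80.0 CPM with glucose. All libraries without glucose were below those with it, but the difference did not pass (log2 −0.46 ± 0.19, edgeR adjusted p = 0.0940). LAMTOR1, which anchors the complex in the membrane, had 186, 259 and 218 CPM without glucose and 332, 192 and 227 CPM with glucose, with overlap. LAMTOR2 and LAMTOR5 had log2 fold changes of −0.07 ± 0.20 and −0.21 ± 0.20. The 5 subunits thus spanned −0.46 to 1.06 with a median of −0.18.

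The members of GATOR1, which inactivates RagA and RagB when amino acids are short, and the arginine sensor CASTOR1 all had fold changes below 0, except that DEPDC5 was above 0 with a replicate block or without some libraries, and NPRL3 fell. NPRL3 had 16.3, 12.3 and 14.0 CPM without glucose, against 26.4, 24.5 and 18.1 CPM with glucose. Replicate 1 without glucose and replicate 3 with glucose nearly met (log2 −0.69 ± 0.23, edgeR adjusted p = 0.0453). Without replicate 1, 2 or 3 of the glucose-free cells the adjusted p was 0.0520, 0.115 and 0.115, and without replicate 1 or 2 with glucose it was 0.102 and 0.121. NPRL2, its partner in the complex, had a log2 fold change of −0.26 ± 0.24. DEPDC5, a further subunit of GATOR1, was sparse, with 61 counts without glucose and 57 with glucose (log2 −0.03 ± 0.51). CASTOR1 had 2.84, 4.44 and 4.79 CPM without glucose and 5.51, 4.80 and 6.19 CPM with glucose. Its groups just failed to overlap, and it did not pass (log2 −0.45 ± 0.32, edgeR adjusted p = 0.339).

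The folliculin complex, which switches RagC and RagD to their active state, had fold changes above 0 in all 3 genes. Of these 0 passed the edgeR test, against 22.3% of all genes tested, and 0 passed by DESeq2. An unadjusted p under 0.05 was reached by 2, against 36.5% of all genes tested. FNIP2, a partner of folliculin that also binds AMPK, had 24.3, 29.6 and 36.1 CPM without glucose, against 21.3, 23.3 and 15.1 CPM with glucose. The groups did not overlap, and the nearest libraries were close (log2 0.60 ± 0.23, edgeR adjusted p = 0.0861). FNIP1, its paralog, had 32.6, 35.4 and 27.4 CPM without glucose and 19.8, 25.3 and 22.6 CPM with glucose, again without overlap (log2 0.49 ± 0.20, edgeR adjusted p = 0.100). FLCN, folliculin itself, had 22.8, 29.3 and 22.3 CPM without glucose and 28.7, 15.6 and 16.1 CPM with glucose, where replicate 1 with glucose was high (log2 0.31 ± 0.26). None of these passed under any of the 12 alternatives.

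Of the 2 kinases that carry the mTORC1 signal to ribosomal protein S6, 0 passed the edgeR test, with 1 at an unadjusted p under 0.05 and 0 by DESeq2. Over all genes tested, the shares were 22.3% by the edgeR test and 36.5% at that unadjusted p. RPS6KB1, the main S6 kinase, had 131, 79.5 and 49.6 CPM without glucose, against 72.0, 72.3 and 61.3 CPM with glucose. The libraries without glucose ran from below to above those with glucose (log2 0.34 ± 0.30). RPS6KB2, its paralog, had 13.0, 16.7 and 13.1 CPM without glucose and 27.5, 18.0 and 20.7 CPM with glucose. All libraries without glucose were lower, without passing (log2 −0.62 ± 0.23, edgeR adjusted p = 0.0721).

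**Figure D4:**
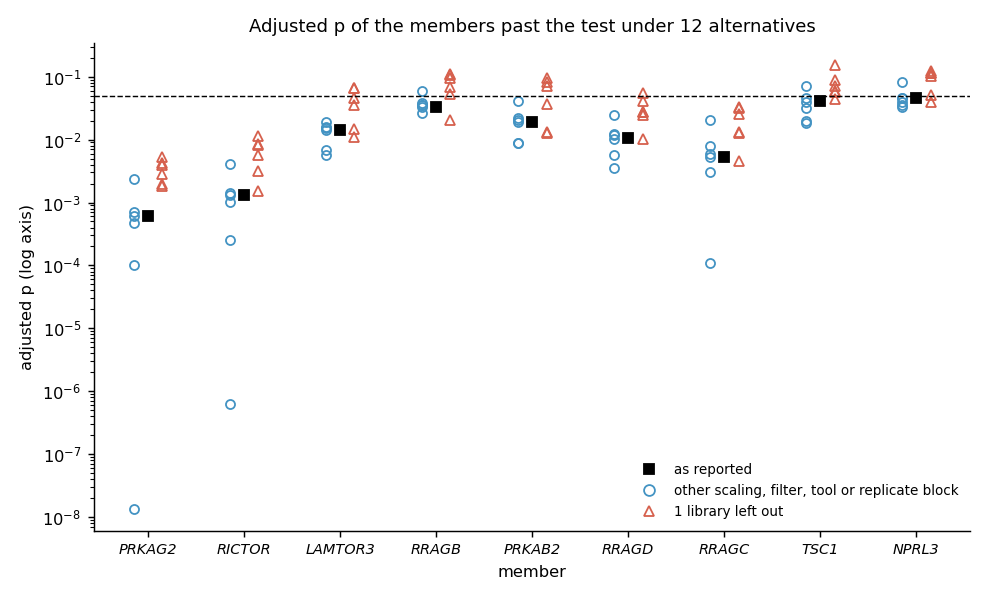
Adjusted p (log axis) of the 9 genes that passed, as reported (squares), under other scalings, filters, DESeq2 or a replicate block (circles) and with 1 library left out (triangles), with the dashed line at 0.05. All markers of PRKAG2, RICTOR and RRAGC lie under the line, while those of PRKAB2, LAMTOR3, RRAGB, RRAGD, TSC1 and NPRL3 reach above it.

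Beyond the 41 genes, 56 further genes of the pathway in 6 lists were read from the same fit, of which 54 were tested. By edgeR 4 rose and 3 fell, or 13.0% against 22.3% of all genes tested. PRKAG3, the muscle form of the gamma subunit, and EIF4EBP3 had 0 counts in every library, which is under 3 counts. None of the 5 tested genes among other AMPK and LKB1 partners and none of the 7 AMPK substrates passed the edgeR test, with 1 of each at an unadjusted p under 0.05 and 0 of either by DESeq2. ULK1, the kinase that starts autophagy and is a substrate of both AMPK and mTORC1, had 47.6, 76.1 and 78.9 CPM without glucose, against 55.5, 33.3 and 35.1 CPM with glucose. Replicate 1 of each group lay among the other group (log2 0.71 ± 0.26, edgeR adjusted p = 0.0682). Of 6 tested mTORC2 and assembly genes none passed either (median log2 fold change −0.58), with 1 at an unadjusted p under 0.05 and 0 by DESeq2. For each of these 3 lists, the share over all genes tested at that unadjusted p was 36.5%.

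Of 13 tested genes of sensors upstream of the Rag GTPases, 1 rose, 1 fell and 11 did not pass. These calls were 15.4% of the list, against 22.3% of all genes tested, and its median log2 fold change was −0.01. SLC38A9, the lysosomal arginine sensor, had 14.7, 14.7 and 18.1 CPM without glucose, against 7.34, 9.41 and 7.52 CPM with glucose. It rose clear of all libraries with glucose (log2 0.97 ± 0.23, edgeR adjusted p = 0.0115; 0.0583 without replicate 3 of the glucose-free cells). CASTOR2, a paralog of the cytosolic arginine sensor, had 7.11, 9.56 and 9.64 CPM without glucose and 21.2, 23.0 and 18.1 CPM with glucose. It fell (log2 −1.24 ± 0.23, edgeR adjusted p = 0.00269) and passed under all 12 alternatives, but the annotation lists a related pseudogene, CASTOR3P, so its count is uncertain.

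Of 9 genes of the PI3K and AKT input, 2 fell and 7 did not pass, or 22.2% called against 22.3% of all genes tested. IRS1, the adaptor of the insulin receptor, had 24.4, 32.1 and 22.5 CPM without glucose, against 60.2, 51.8 and 43.3 CPM with glucose. AKT1, the kinase that inhibits the TSC complex, had 43.1, 65.2 and 51.5 CPM without glucose and 113, 97.1 and 88.7 CPM with glucose. Neither overlapped (IRS1 log2 −0.97 ± 0.22, AKT1 log2 −0.90 ± 0.22, edgeR adjusted p = 0.00763 and 0.0112), and both passed under all 12 alternatives.

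Of 14 tested substrates and effectors of mTORC1, 3 rose and 11 did not pass by edgeR, or 21.4% called against 22.3% of all genes tested. DESeq2 called 3 higher and 1 lower, which was MITF. GRB10, an adaptor that mTORC1 stabilizes and that dampens insulin signaling, had 87.7, 52.5 and 59.8 CPM without glucose, against 18.4, 23.3 and 21.6 CPM with glucose. This was the largest change among the 54 genes tested, at 3.15-fold (log2 1.66 ± 0.24, edgeR adjusted p = 5.73e-04), and it passed under all 12 alternatives. ATG13, a partner of ULK1, and EIF4EBP1, the repressor of translation initiation that mTORC1 inactivates, rose by 0.74 ± 0.21 and 0.72 ± 0.21 on the log2 scale (edgeR adjusted p = 0.0243 and 0.0258). EIF4EBP1 lies outside the naming rule, like ULK1, TFE3, TFEB and MITF, and these were named after their values were seen. Both calls were lost without replicate 2 (0.0793 for ATG13 and 0.0543 for EIF4EBP1) or 3 (0.0651 and 0.0769) of the glucose-free cells, and without replicate 2 (0.0989 and 0.109) or 3 (0.0927 and 0.100) with glucose. The annotation lists pseudogenes of EIF4EBP1, so its count is uncertain as well. TFE3, the lysosomal gene regulator that mTORC1 holds in the cytosol, had 34.5, 30.8 and 39.9 CPM without glucose and 35.2, 27.5 and 36.6 CPM with glucose, with overlap (log2 0.09 ± 0.20). TFEB, its relative, had 51 counts without glucose and 42 with glucose, and MITF, of the same family, did not pass by edgeR (log2 −0.50 ± 0.19, adjusted p = 0.0721) but did by DESeq2 (log2 −0.52, adjusted p = 0.0411).

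**Figure D5:**
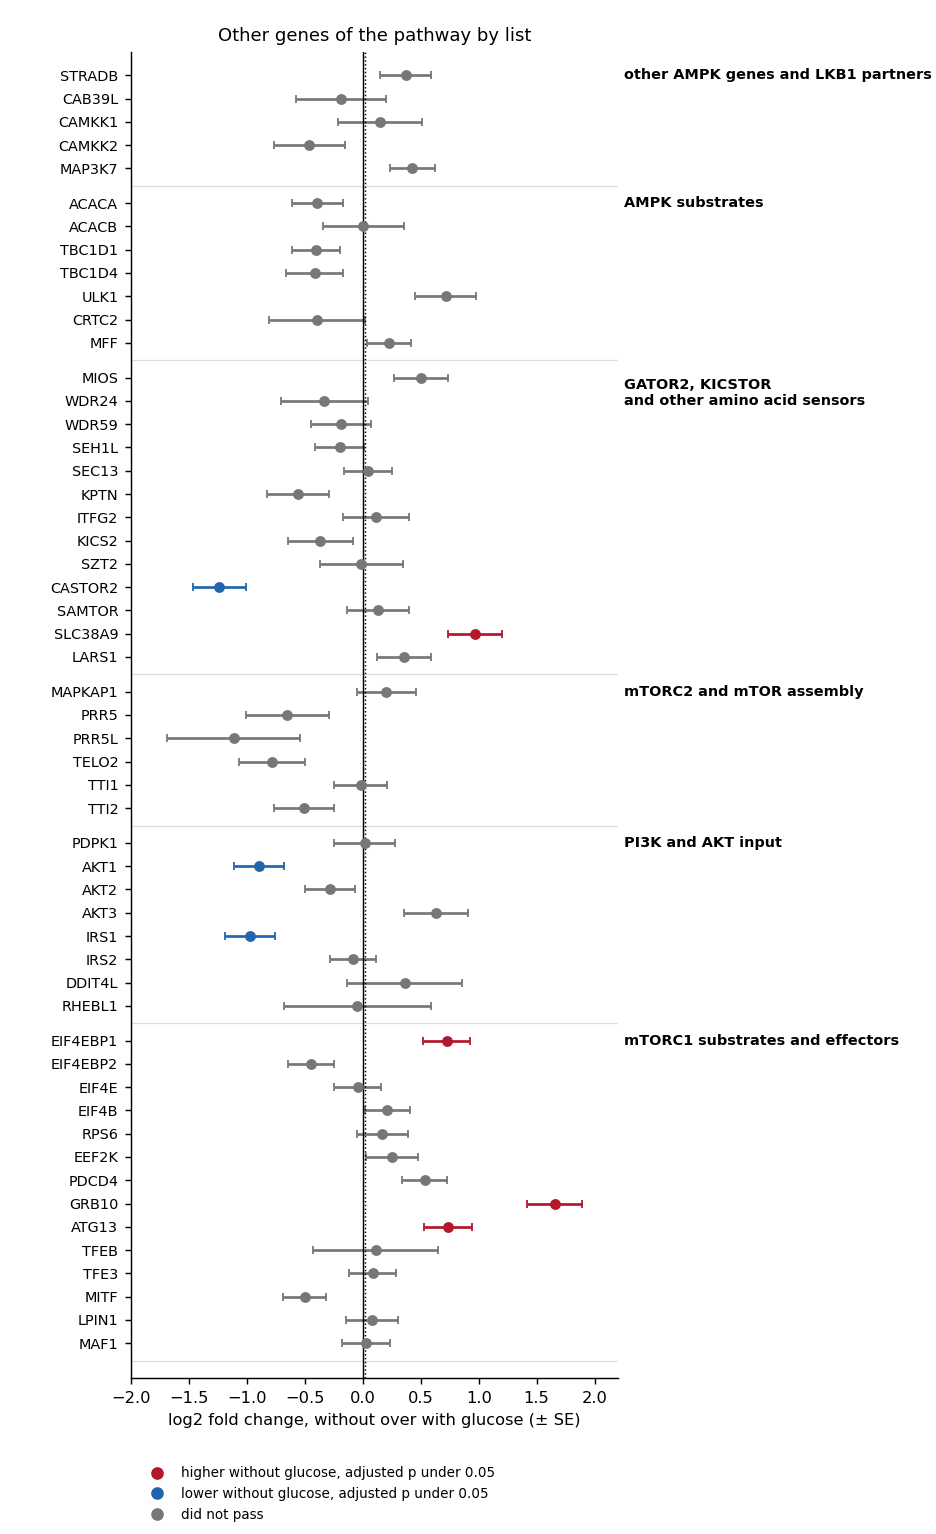
Log2 fold changes, without over with glucose, of tested genes of the pathway outside the 41, by list, with 1 gene that did not pass left out of the plot. Points are edgeR estimates and bars are ± SE (3 libraries per group), with the solid line at 0 and the dotted line at the median over all tested genes. GRB10 is highest at 1.66 and CASTOR2 lowest at −1.24.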

How the data were processed

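Reads from 3' end libraries of A549 cells (6 in all) were aligned with STAR and counted per gene with HTSeq on hg19, per the submitters' processing notes. The deposited values are raw counts per Entrez gene, made by the authors. Tool versions, strand setting and annotation: not given in the sources used here. Gene counts were 43.1% to 44.7% of all reads listed. Reads with no feature were 32.8% to 36.5%, reads with several alignments 18.4% to 22.2% and ambiguous reads 0.369% to 0.418%, and these 5 summary lines were left out of library sizes and tests. Symbols matched for 19178 genes, and 62 had none.

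Genes were filtered with filterByExpr (minimum count 10), scaled by TMM and tested with edgeR 4.0.16 (glmQLFit, glmQLFTest; R 4.3.3, limma 3.58.1), with Benjamini-Hochberg adjustment over all 11886 genes and a threshold of 0.05. The alternatives were RLE scaling, library totals, no filter, a mean of at least 20 counts, a replicate block, DESeq2 1.42.0 and leaving out each library. The fit was tested on simulated data. Named genes were all 41 members and, of each further list, the 2 with the smallest p among those that passed. Other genes of those lists were named after their values were seen. The members and lists were chosen with earlier results of these data known. No molecular identifiers are described, so intervals cover counting error only. Of the further lists, 1 gene enters the counts but is not reported here.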

Additional observations from a re-analysis of the deposited data

How the results depend on the processing

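Over 48 genes and 12 alternatives, 513 of 574 values kept direction and side of the threshold, 35 lost the call, 1 gained it and 25 changed sign. Calls were lost only with a library left out or with the replicate block. Leaving out 1 library gave 4 to 8 members higher and 0 to 1 lower, against 860 to 1292 genes higher and 781 to 1232 lower overall. With the replicate block, 6 members were higher and 0 lower (984 and 911 genes overall). The labels do not say that numbers pair libraries, and deviations of same-numbered libraries correlated at −0.27, −0.12 and 0.04. The block ended the calls of TSC1 (0.0703), RRAGB (0.0602), NPRL3 (0.0818), ATG13 (0.0627) and EIF4EBP1 (0.0655). The cause was not tested. DESeq2 and each scaling or filter left 8 members higher and 1 lower.

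Values that changed sign were never called. With 1 library left out the log2 fold changes ran from −0.26 to 0.085 for PRKAB1, −0.090 to 0.21 for CAB39, −0.51 to 0.061 for SESN2, −1.09 to 0.28 for SESN3, −0.016 to 0.36 for MTOR, −0.074 to 0.18 for RPTOR, −0.17 to 0.095 for MLST8, −0.32 to 0.096 for AKT1S1, −0.41 to 0.24 for TSC2, −0.34 to 0.073 for LAMTOR1, −0.16 to 0.056 for LAMTOR2, −0.35 to 0.37 for DEPDC5 and −0.086 to 0.61 for RPS6KB1. MLST8 was −0.019 with RLE scaling, −0.020 with DESeq2, −0.060 with library totals and −0.014 with the replicate block, and DEPDC5 was 0.070 with the replicate block. SESN3 and DEPDC5 were too low for the filter at a mean of 20 counts. Depth limits mainly these genes, whose standard errors reached 0.71, against a median of 0.24 over the 41.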

Other observations

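Shares within pairs of subunits do not depend on how libraries are scaled. The 8 pairs were chosen after their values were seen, so they are described without a test. Counts of 3' ends do not give molar ratios, so only the difference between groups can be read. PRKAB2 made up 62.0% ± 6.90 of the counts of PRKAB1 and PRKAB2 without glucose and 44.3% ± 2.34 with glucose (SD, n = 3 each). PRKAG2 made up 60.7% ± 2.62 of the PRKAG1 and PRKAG2 counts without glucose and 44.4% ± 5.85 with glucose. For the catalytic pair, PRKAA1 made up 49.6% ± 5.32 without glucose and 37.5% ± 6.003 with glucose. The groups did not overlap in any of these AMPK pairs.

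RICTOR made up 86.9% ± 3.21 of the counts of RICTOR and RPTOR without glucose and 74.6% ± 3.97 with glucose, and TSC1 made up 72.0% ± 2.17 of those of TSC1 and TSC2 without glucose and 55.5% ± 10.8 with glucose. These pairs did not overlap either, and no share over other pairs of genes was computed. RRAGD made up 22.7% ± 3.19 of the RRAGC and RRAGD counts without glucose and 22.4% ± 5.64 with glucose, with overlapping groups, and the difference ran from −1.69 to 3.52 percentage points with 1 library left out. RRAGB made up 8.34% ± 3.51 of the RRAGA and RRAGB counts without glucose and 5.34% ± 0.890 with glucose, also overlapping. That difference of 3.01 points was 1.06 without replicate 1 of the glucose-free cells and 4.46 without their replicate 2. RPS6KB1 made up 84.2% ± 6.11 of the S6 kinase pair without glucose and 75.7% ± 3.92 with glucose, overlapping as well. That difference of 8.52 points was 5.14 without replicate 1 of the glucose-free cells. The 95% Wilson interval of a share in 1 library reached at most 6.14 percentage points to either side.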
